A study of Sus scrofa with 80 samples.

Results

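Liver was compared with kidney in Göttingen minipigs, a small pig breed, across the first 4 months of life. The 16 samples were chosen from the 80 arrays of the series by their tissue and age labels, as every liver and every kidney sample taken at 1 week, 4 weeks, 2 months or 4 months. Each organ held 8 samples, 1 male and 1 female at each of the 4 ages. All of these animals came from the breeder Ellegaard, shared a diet and a light cycle and were killed with pentobarbital in the early day phase, and the labels name no other treatment. Total RNA of frozen, crushed tissue was labelled with the dye Cy3 and hybridised to a custom one-colour Agilent array with pig probes. The labels do not name the liver lobe or the zone of the kidney, and they do not say whether the liver and the kidney of an age and sex came from 1 animal. With 1 animal at each age and sex, the spread behind every p-value holds age, sex and individual together.

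The liver and the kidney are the main organs of intermediary metabolism, and they divide some of its tasks and share others. Hepatocytes store glycogen, make bile acids, plasma proteins, lipoproteins and ketone bodies, turn ammonia into urea, and oxidise and conjugate foreign compounds. Cells of the kidney proximal tubule reclaim glucose, amino acids, phosphate and small proteins from the filtrate, secrete organic ions, complete the synthesis of arginine and of active vitamin D, and burn fatty acids, lactate and ketone bodies. Both cell types make glucose, and both take up and degrade amino acids.

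Values are normalised intensities in log2 units, averaged over the probes of a gene. Where 3 values are given for an organ, they are the lowest, the median and the highest of its 8 samples. Differences are liver minus kidney with their standard error from limma, so that a positive value is higher in liver and a difference of 1.0 is 2-fold. A gene was called when its Benjamini-Hochberg adjusted p over all genes was under 0.05 and the difference was at least 2-fold. It was termed level when the 95% interval of its difference lay within 2-fold on either side of 0 and all 16 samples exceeded a detection limit set for each array at the 95th percentile of negative control spots. It was termed high in both organs when the lowest of the 16 samples lay above the highest of the 40 samples of cerebellum, hypothalamus, cerebral cortex, spleen and bone marrow from animals of the same ages. A level gene can still differ by less than 2-fold, with or without overlap between the organs. A saturated spot gives only a lower limit of its signal, and a spot not well above background only an upper limit. Where this held for 4 or more arrays of an organ but not for all 8, the number of arrays is given and the fitted difference is a description that such arrays enter with their measured signal. Intensities depend on the probe, so levels are compared between organs and not between genes.

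Of 23722 genes, 1871 were higher in liver (7.89%) and 2198 were higher in kidney (9.27%). A further 10032 genes were level (42.3%), and 9621 were neither called nor level. Of the level genes, 7612 were well above background on every liver and kidney array. The others passed the detection limit, but on some arrays their signal is only an upper limit. The 42.3% against which the level shares of the lists are set includes these dimmer genes. High in both organs were 507 genes (2.14%), of which 204 were level, 143 higher in liver and 59 higher in kidney. The 8 values of one organ all lay above the 8 of the other for 4794 genes (20.2%), and this held for 3280 of the called genes. At least a 2-fold difference in all 8 comparisons of the same age and sex was found for 882 of the genes higher in liver and 1052 of those higher in kidney. In whole tissue, fewer cells of a type and less RNA per cell cannot be told apart, so every difference here is one per amount of tissue RNA.

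No array stood apart from its organ. The median correlation of an array with the others of its organ was between 0.971 and 0.984, and the highest correlation with an array of the other organ was 0.892. Raw median intensity was 33 to 45 on the liver arrays and 40 to 68 on the kidney arrays, against 18 to 24 for the negative controls, and 72.5% to 85.8% of the genes lay above the detection limit. The labels were checked against marker genes. Of 12 hepatocyte markers on the array, 11 were higher in liver, and their mean log2 level was 12.42 to 12.54 in liver against 4.71 to 5.07 in kidney. The remaining one, SERPINA1, was not well above background on any of the 16 arrays. Of 6 proximal tubule markers 5 were higher in kidney, with a mean level of 7.69 to 8.77 against 4.20 to 4.60 in liver. The last one, SLC22A6, an organic anion transporter of this cell, lay at 2.92, 3.55 and 4.19 in kidney, well above background on 3 of 8 kidney arrays and on 0 of 8 liver arrays. Of 8 markers of the distal nephron and glomerulus 7 were higher in kidney, and CALB1 was level at 8.83, 9.72 and 11.13 in liver and 9.11, 9.70 and 10.33 in kidney. The samples of the 5 other organs lay at 8.40 to 13.09 for CALB1, a range that holds every liver and kidney value. Whether its signal in liver and kidney is that of CALB1 RNA was not tested. The symbols in the files are those of the array design, and genes without a probe marked as specific are named as such below.

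Among the 10 genes with the largest difference toward liver, 7 encode secreted proteins, 2 encode enzymes and 1 encodes a fatty acid binding protein of the cytosol. LECT2, a secreted liver protein, had values of 14.52, 14.77 and 15.56 in liver and 1.89, 2.25 and 2.93 in kidney, which was at least 3733-fold higher in liver (adjusted p = 2.57e-20). Where no probe of a gene was well above background on any array of one organ, a fold is given as at least a value. It sets the mean of the brighter organ against the mean, over the arrays of the dim organ, of the higher of the gene's own signal and the lowest signal that was well above background. MAT1A, which makes S-adenosylmethionine in the adult liver, lay at 13.28, 13.81 and 14.31 in liver and 2.88, 3.32 and 3.65 in kidney and was at least 1383-fold higher in liver. CYP2E1, which oxidises ethanol and other small molecules, lay at 11.67, 14.03 and 14.62 in liver and 1.52, 2.02 and 2.70 in kidney, at least 1556-fold higher in liver with no specific probe. The lowest liver value of CYP2E1 belonged to the 4-month male, and it still lay far above every kidney sample. FABP1, the fatty acid binding protein of liver and intestine, lay at 14.42, 14.68 and 15.22 in liver and 3.38, 4.19 and 4.80 in kidney, a difference of 10.53 ± 0.17 (adjusted p = 2.74e-19). The other members of the first 10 in liver were APOC4, HP, FGG, ITIH1, CD5L and SPP2, all of them genes of secreted proteins, with lowest liver values between 12.93 and 15.70. HP has no specific probe, FGG was well above background on 2 of 8 kidney arrays, and ITIH1 had a saturated spot on 7 liver arrays.

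Among genes with a symbol, the largest difference toward kidney belonged to SLC47A2, an exporter of organic cations into the urine. Its values were 2.95, 4.10 and 4.30 in liver and 12.76, 14.09 and 14.77 in kidney, at least 1015-fold higher in kidney (adjusted p = 3.2e-16). LRP2, the endocytic receptor megalin that reclaims filtered proteins, lay at 1.84, 2.64 and 3.10 in liver and 11.03, 11.77 and 12.39 in kidney and was at least 328-fold higher in kidney. SLC6A18, a carrier of neutral amino acids at the apical membrane, lay at 2.71, 3.09 and 4.33 in liver and 10.80, 11.93 and 12.93 in kidney, a difference of -8.82 ± 0.28, with 3 of 8 liver arrays well above background. KCNJ1, SLC12A3 and SLC12A1, which move potassium, sodium and chloride in the distal nephron, were at least 275-fold, 229-fold and 128-fold higher in kidney, SLC12A1 with no specific probe. ARNT2, a transcription factor, was higher in kidney, with a difference of -8.12 ± 0.18. Liver and kidney values did not overlap in any of these genes with a large difference, which was a condition of their choice.

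**Figure D1:**
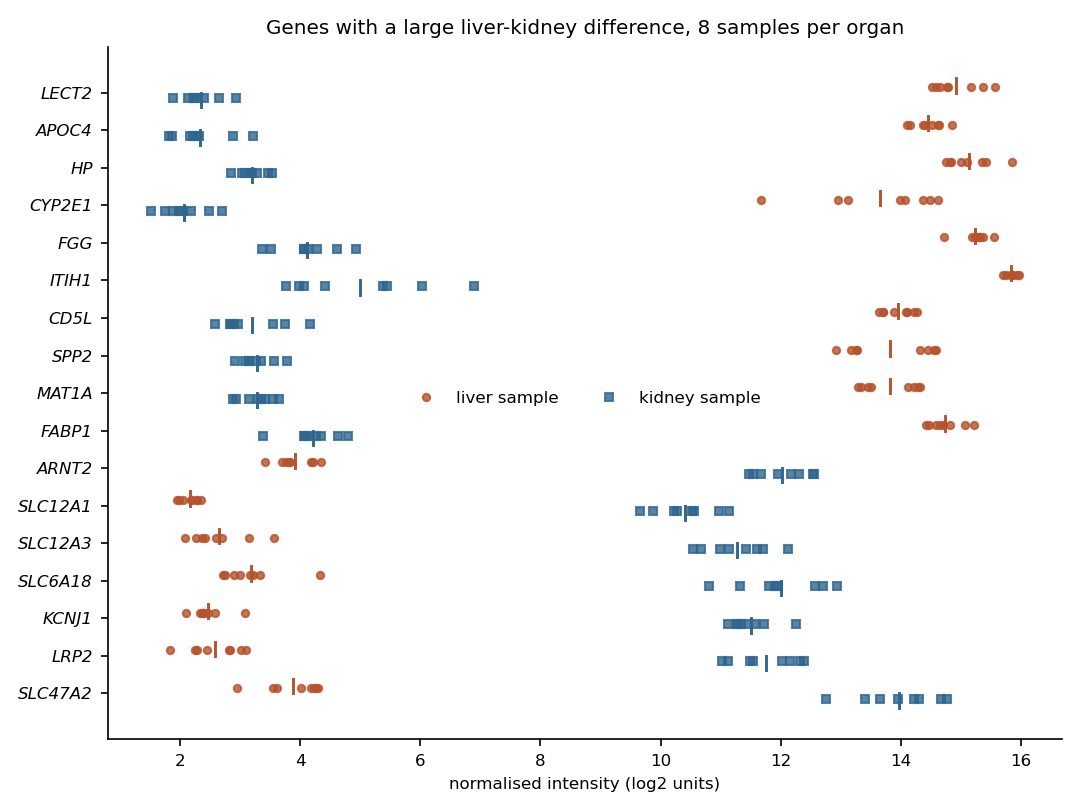
Normalised intensity (log2 units) of the 10 genes with the largest difference toward liver (upper) and of the genes named above with a large difference toward kidney (lower), with 1 point per sample and a bar at the mean of the 8 samples of an organ. Circles are liver and squares are kidney. The liver points of the upper 10 genes lie at 11.67 or higher and the kidney points at 6.90 or lower, and in the lower genes the liver points lie at 4.34 or lower and the kidney points at 9.66 or higher.

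The 20 lists of enzymes and their pathways held 460 genes on the array. Of these, 179 were higher in liver (38.9% against 7.89% of all genes), 64 were higher in kidney (13.9% against 9.27%) and 121 were level (26.3% against 42.3%). Their median difference was 0.48 against 0.01 over all genes. High in both organs were 106 of them. The lists cover pathways of the liver, of the kidney or of both, and were chosen with earlier results of these data known. Their shares therefore describe the chosen genes and are not a test against all genes.

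**Figure D2:**
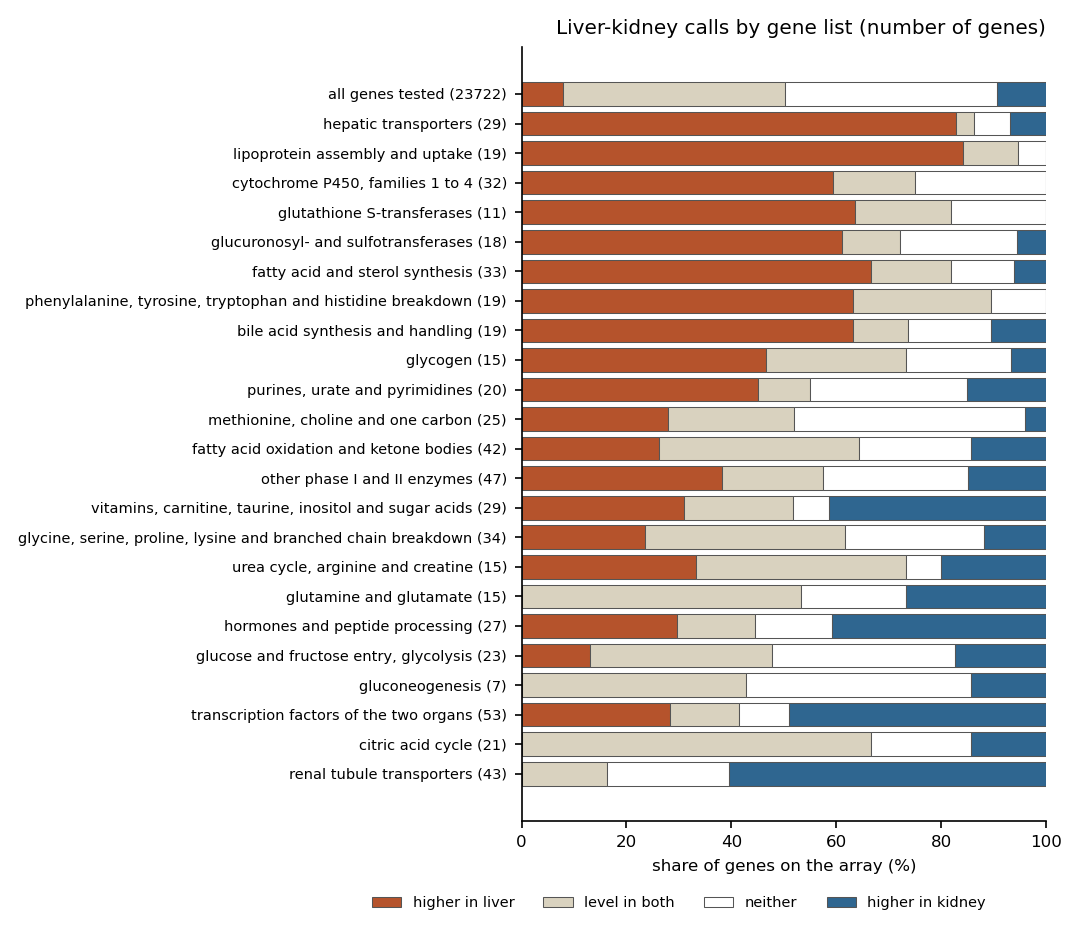
Share of the genes on the array (%) that were higher in liver, level, neither called nor level, or higher in kidney, for all genes and for each list, with the number of genes in parentheses. Lists are ordered by their median difference below the bar for all genes, from 2.54 for hepatic transporters to -1.37 for renal tubule transporters.

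Of 7 genes of glucose production 4 were high in both organs, or 57.1% against 2.14% of all genes. Level were 3 of the 7, a share of 42.9% that is close to the 42.3% of all genes. Higher in kidney was 1 (14.3%), and 0 were higher in liver. SLC37A4, the carrier that brings glucose 6-phosphate into the endoplasmic reticulum, lay at 11.62, 12.29 and 12.46 in liver and 11.80, 12.09 and 12.37 in kidney, with an interval of the difference from -0.21 to 0.37. The values of the organs overlapped. FBP1, which splits off a phosphate late in the pathway, lay at 13.59, 13.95 and 14.48 in liver and 14.13, 14.95 and 15.66 in kidney and differed by -0.97 ± 0.20 (adjusted p = 0.000606), just short of 2-fold. PC, which feeds pyruvate into the pathway, was level with a difference of -0.28 ± 0.26. PCK1, the regulated step from oxaloacetate, was the exception, with values of 8.54, 14.12 and 14.69 in liver and 14.94, 15.72 and 15.99 in kidney and a difference of -2.66 ± 0.70 (adjusted p = 0.00406). All 8 kidney values lay above all liver values, 4 kidney arrays had a saturated spot of the gene, and no probe was marked as specific. Its mitochondrial form PCK2 was level at 0.51 ± 0.22.

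Of 23 genes of sugar entry and glycolysis, 3 were higher in liver (13.0%), 4 in kidney (17.4%) and 8 were level (34.8%), with a median difference of -0.10. SLC2A2, the glucose carrier of hepatocytes and of the basolateral tubule, lay at 8.67, 9.11 and 9.41 in liver and 5.90, 6.36 and 7.07 in kidney, a difference of 2.69 ± 0.17 (adjusted p = 1.72e-10), and every value of both organs exceeded the highest of the 5 other organs, 2.80. HK1, a hexokinase with high affinity for glucose, was higher in kidney, with a difference of -1.98 ± 0.21, as was LDHB, the heart type subunit of lactate dehydrogenase, at -1.54 ± 0.29. LDHA, the muscle type subunit, was level at 0.17 ± 0.16, as were the glycolytic genes ENO1 at 0.03 ± 0.13, with no specific probe, and TPI1 at -0.44 ± 0.10. Of 15 glycogen genes 7 were higher in liver (46.7%) and 1 in kidney (6.67%), with a median of 0.70. PPP1R3B, which directs a phosphatase to glycogen, lay at 7.91, 9.49 and 10.91 in liver and 4.42, 4.70 and 4.84 in kidney, a difference of 4.81 ± 0.32. GYS2, the liver glycogen synthase, was at least 5.38-fold higher in liver, where 7 of 8 arrays were well above background, and the muscle form GYS1 was level at -0.32 ± 0.17. PYGL, the liver phosphorylase with no specific probe, was higher in liver by 1.95 ± 0.11, with 2 of 8 kidney arrays well above background. When 50 units were added to the corrected intensities before the log2 step (an offset of 50), the differences were 0.84 for GYS2 and 0.78 for PYGL, and both calls were lost.

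Genes of the urea cycle differed by step. CPS1, which starts the cycle in mitochondria, lay at 6.33, 7.41 and 9.58 in liver and 3.43, 3.80 and 4.14 in kidney, a difference of 3.86 ± 0.40 (adjusted p = 2.41e-07). ARG1, which releases urea, lay at 7.87, 8.76 and 9.06 in liver and 3.57, 3.88 and 4.54 in kidney, a difference of 4.71 ± 0.17. In kidney 2 of 8 arrays were well above background for CPS1 and 4 for ARG1. Neither gene overlapped between the organs. ASS1, which joins citrulline and aspartate and serves arginine synthesis in the kidney as well, was level at 10.87, 11.67 and 12.04 in liver and 11.54, 12.04 and 12.50 in kidney, and all 16 values lay above the 5.93 that was the highest in the 5 other organs. SLC25A15, the ornithine and citrulline carrier, was level at 0.38 ± 0.19. Of the 15 genes of the urea cycle, arginine and creatine, 5 were higher in liver (33.3%) and 3 in kidney (20.0%). Level were 6, a share of 40.0% that is close to the 42.3% of all genes. GATM, the first enzyme of creatine synthesis, was level at 10.81, 11.51 and 11.81 in liver and 11.55, 12.04 and 12.75 in kidney, and GAMT, the second, lay at 13.53, 13.70 and 13.88 in liver and 9.25, 9.54 and 10.07 in kidney, a difference of 4.10 ± 0.11 with no specific probe. The creatine kinases CKB and CKM were higher in kidney, CKB with a difference of -3.61 ± 0.29 and CKM at least 19.8-fold with values of 2.67, 2.87 and 3.77 in liver and 6.34, 7.73 and 8.75 in kidney.

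Genes for the breakdown of the aromatic amino acids and of histidine were mostly higher in liver. Of 19 genes, 12 were higher in liver (63.2%), 0 in kidney and 5 were level (26.3%), with a median difference of 1.87. UROC1 and AMDHD1, successive enzymes of histidine breakdown, lay at 11.85, 12.34 and 12.70 in liver and 2.29, 2.86 and 2.99 in kidney for UROC1 and at 9.88, 10.64 and 11.30 in liver and 4.88, 5.59 and 7.02 in kidney for AMDHD1. UROC1 was at least 581-fold higher in liver (adjusted p = 9.37e-20) and AMDHD1 was higher by 4.84 ± 0.33 (adjusted p = 5.17e-10). TDO2, which opens the tryptophan ring, lay at 9.97, 10.76 and 11.44 in liver and 2.08, 2.33 and 2.85 in kidney and was at least 207-fold higher in liver. QDPR, which regenerates the cofactor of phenylalanine hydroxylase, was level at -0.02 ± 0.22, and so was DDC, which makes dopamine in the kidney, at -0.37 ± 0.13.

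Of 34 genes for the breakdown of glycine, serine, proline, lysine and branched-chain amino acids, 17 were high in both organs, or 50.0% against 2.14% of all genes. Level were 13, or 38.2% against 42.3% of all genes, 8 were higher in liver (23.5%) and 4 in kidney (11.8%), and the median difference was 0.22. PRODH2, which oxidises hydroxyproline, was level with values of 11.88, 12.20 and 12.46 in liver and 12.15, 12.89 and 13.37 in kidney, against at most 4.34 in the 5 other organs. ALDH4A1, which acts downstream on both proline and hydroxyproline, was level at 11.25, 11.63 and 11.96 in liver and 11.01, 11.80 and 11.99 in kidney. HOGA1, the last enzyme of hydroxyproline breakdown, was higher in kidney at 11.83, 12.11 and 12.30 in liver and 13.27, 13.75 and 14.34 in kidney, a difference of -1.68 ± 0.15, and also high in both organs. Scaled on the 75th percentile of the scanner's processed signal, its difference was -0.98 and the call was lost. SDS, which deaminates serine, stood at the other end, with 7.38, 10.97 and 15.49 in liver and 3.98, 4.75 and 6.06 in kidney, a difference of 6.22 ± 0.85, while its paralogue SDSL was level at 0.15 ± 0.26. IVD and AMT, for leucine and glycine, were higher in liver by 1.66 ± 0.12 and 2.01 ± 0.21.

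Of 15 glutamine and glutamate genes 4 were higher in kidney, or 26.7% against 9.27% of all genes, and 0 were higher in liver. Level were 8, or 53.3% against 42.3% of all genes. GPT2, the mitochondrial alanine aminotransferase, lay at 6.92, 10.54 and 12.16 in liver and 12.91, 13.67 and 13.95 in kidney, a difference of -3.24 ± 0.57 (adjusted p = 0.000113). ASPA, which splits N-acetylaspartate, and GGT5, of glutathione turnover, were higher in kidney, with differences of -3.03 ± 0.29 and -2.72 ± 0.32. GOT1 and GOT2, the aspartate aminotransferases, were level at 0.23 ± 0.24 and -0.13 ± 0.23.

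In the methionine and choline list, 7 of 25 genes were higher in liver (28.0%), 1 was higher in kidney (4.0%) and 9 were high in both organs (36.0%). CDO1, which commits cysteine to taurine and sulfate, lay at 10.77, 12.88 and 13.72 in liver and 4.25, 5.40 and 6.91 in kidney, a difference of 7.21 ± 0.40. NNMT, which methylates nicotinamide, lay at 8.85, 10.02 and 11.72 in liver and 2.40, 2.63 and 2.85 in kidney, at least 141-fold higher in liver. AHCY, which removes S-adenosylhomocysteine, was level at 0.43 ± 0.12, as was SUOX, the sulfite oxidase, at 0.08 ± 0.19. MAT2A, the form of MAT1A used by most tissues, differed by -0.79 ± 0.13, less than 2-fold toward kidney.

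Of 42 genes of fatty acid oxidation and ketone bodies, 15 were high in both organs, or 35.7% against 2.14% of all genes. Level were 16, or 38.1% against 42.3% of all genes, with 11 higher in liver (26.2%) and 6 in kidney (14.3%). ACAA1, the peroxisomal thiolase, was level at 13.11, 13.49 and 13.72 in liver and 12.59, 13.09 and 13.50 in kidney, and every value lay above the 12.22 that was the highest elsewhere. ACADS, for short chains, was level with a difference of 0.56 ± 0.11, and its 8 liver values all lay above its 8 kidney values. CPT1A, the entry step into mitochondria, was level with a difference of -0.29 ± 0.29. OXCT1, which lets a tissue burn ketone bodies, lay at 4.24, 4.83 and 5.26 in liver and 9.09, 9.42 and 9.78 in kidney, a difference of -4.59 ± 0.15 (adjusted p = 6.74e-15), with all kidney samples above all liver samples. ACSL5, an acyl-CoA synthetase with no specific probe, lay at 10.97, 11.28 and 11.50 in liver and 7.09, 7.61 and 7.88 in kidney, a difference of 3.69 ± 0.12.

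Of 33 genes of fatty acid and sterol synthesis, 22 were higher in liver (66.7%), 2 were higher in kidney (6.06%) and 5 were level (15.2%). The median difference was 1.90. THRSP, a nuclear protein that goes with lipogenesis, lay at 8.64, 9.43 and 11.37 in liver and 1.88, 2.29 and 4.40 in kidney, a difference of 7.16 ± 0.40 (adjusted p = 2.4e-11), with 1 of 8 kidney arrays well above background. FADS1, a desaturase of polyunsaturated fatty acids, lay at 8.36, 10.62 and 11.54 in liver and 4.41, 5.57 and 6.32 in kidney, a difference of 4.93 ± 0.39. MVK, of the mevalonate pathway, lay at 10.26, 10.84 and 11.68 in liver and 6.12, 7.13 and 7.33 in kidney, a difference of 3.98 ± 0.24. None of the 3 genes overlapped between the organs. ACLY, which makes cytosolic acetyl-CoA, was level at -0.26 ± 0.24 and ELOVL1, an elongase, at 0.22 ± 0.11. ME3, a mitochondrial malic enzyme, was at least 2.64-fold higher in kidney, a call that was lost with the offset of 50, at -0.44.

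Lipoprotein and bile acid genes were mostly higher in liver. Of 19 lipoprotein genes 16 were higher in liver (84.2%) and 0 in kidney, with a median of 2.45. APOA2 lay at 12.57, 12.96 and 13.31 in liver and 2.65, 3.23 and 3.41 in kidney and was at least 786-fold higher in liver. APOC3 lay at 6.57, 7.44 and 9.47 in kidney and had saturated spots on 5 of 8 liver arrays, so that the fitted difference of 8.25 is a lower limit. APOH, with no specific probe, was at least 380.0-fold higher in liver. APOB, the structural protein of liver lipoproteins, was level at 4.54, 4.69 and 5.07 in liver and 4.74, 4.91 and 5.11 in kidney, and PLTP at 0.02 ± 0.10. The samples of the 5 other organs lay at 4.06 to 5.40 for APOB, a range that holds every liver and kidney value. Whether the APOB probes report its RNA was not tested, so its level state says nothing about its amount. Of 19 bile acid genes 12 were higher in liver (63.2%) and 2 in kidney (10.5%, close to the 9.27% of all genes). SLC10A1, the bile salt uptake carrier of hepatocytes, lay at 11.56, 12.08 and 12.38 in liver and 1.69, 2.18 and 2.67 in kidney and was at least 501-fold higher in liver, SLCO1B3 was at least 186-fold higher and ABCB4, which exports phospholipid into bile, at least 57.1-fold. Kidney was higher for SLC10A2, the apical bile salt carrier, at 1.88, 2.14 and 2.39 in liver and 5.75, 6.77 and 7.57 in kidney and at least 9.76-fold, and for SLC51B, a subunit of the basolateral exporter, with a difference of -1.32 ± 0.23. FGFR4 and HSD3B7, a receptor and an enzyme of bile acid synthesis, were level at 0.62 ± 0.11 and 0.54 ± 0.10. The FGFR4 values of the organs did not overlap.

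Genes for the oxidation and conjugation of foreign compounds were mostly higher in liver. Of 32 genes of cytochrome P450 families 1 to 4, 19 were higher in liver, 0 were higher in kidney, 5 were level and 8 were high in both organs. The median difference was 2.29. CYP1A2 lay at 9.93, 11.76 and 13.46 in liver and 3.04, 3.45 and 4.09 in kidney, a difference of 8.29 ± 0.37 (adjusted p = 8.43e-13) with 3 of 8 kidney arrays well above background, and CYP3A22, a pig member of the CYP3A subfamily with no specific probe, at 9.90, 12.70 and 13.36 in liver and 2.99, 3.47 and 3.88 in kidney, a difference of 8.79 ± 0.43. CYP2C33, a pig member of the CYP2C subfamily, was level, with values of 14.24, 14.69 and 15.64 in liver and 14.11, 15.15 and 15.97 in kidney and an interval from -0.70 to 0.33. The liver and kidney values overlapped, 1 kidney array was saturated, and no sample of the 5 other organs exceeded 4.30. CYP2A6 and CYP4Z1, both with no specific probe, were level at 0.23 ± 0.19 and 0.10 ± 0.27. The samples of the 5 other organs lay at 6.49 to 7.48 for CYP2A6 and 7.90 to 9.19 for CYP4Z1. These ranges overlapped with liver and with kidney.

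Of 18 glucuronosyl- and sulfotransferases 11 were higher in liver (61.1%), 1 in kidney (5.56%) and 2 were level (11.1%). UGT2A1 and UGT2A2 were at least 214-fold and at least 207-fold higher in liver, but neither has a specific probe and their signals cannot be told apart. UGT2B31 lay at 11.78, 12.12 and 12.98 in liver and 2.41, 3.85 and 7.09 in kidney, a difference of 7.97 ± 0.58, with kidney samples that spanned a wide range, were well above background on 3 of 8 arrays and never reached liver. SULT1A3, a sulfotransferase of phenols, was higher in kidney, with a difference of -1.57 ± 0.44 (adjusted p = 0.0063) and lost its call without the 2-month samples, at -1.20 and an adjusted p of 0.0516, and under scaling on the 75th percentile, at -1.14 and an adjusted p of 0.0645. Of 11 glutathione S-transferases 7 were higher in liver (63.6%), 0 in kidney and 2 were level (18.2%). GSTA1 lay at 13.75, 14.05 and 14.70 in liver and 4.73, 7.81 and 9.22 in kidney, a difference of 6.52 ± 0.46, and GSTA3 at 9.13, 9.99 and 10.58 in liver and 4.72, 5.63 and 7.27 in kidney, a difference of 4.05 ± 0.35. MGST1 and MGST3, microsomal members, were level at 0.51 ± 0.16 and -0.02 ± 0.17.

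Among 47 other enzymes of oxidation and conjugation, 18 were higher in liver (38.3%), 7 in kidney (14.9%) and 16 were high in both organs (34.0%). ADH4, an alcohol dehydrogenase, lay at 6.31, 12.53 and 13.02 in liver and 2.19, 2.66 and 3.16 in kidney and was at least 277-fold higher in liver. PON3, a lactonase, was at least 37.5-fold higher in liver. CDA, which deaminates cytidine, lay at 5.12, 5.89 and 6.43 in liver and 10.96, 11.11 and 11.97 in kidney, a difference of -5.38 ± 0.19 (adjusted p = 2.75e-14), with every kidney value above every liver value. ACSM2A, which activates benzoate for coupling to glycine, was higher in kidney at 8.44, 8.87 and 9.45 in liver and 9.76, 11.14 and 11.49 in kidney and high in both organs. FMO1, a flavin-containing monooxygenase, was high in both organs and differed by 0.96 ± 0.27, less than 2-fold toward liver. MAOB, which oxidises amines, was level at 0.39 ± 0.15, and CBR1, a carbonyl reductase, at -0.51 ± 0.21.

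The citric acid cycle had the largest share of level genes among the enzyme lists, 14 of 21, or 66.7% against 42.3% of all genes. In it 3 were higher in kidney (14.3%) and 0 in liver, with a median of -0.28. PDHA1, a subunit of pyruvate dehydrogenase that feeds the cycle, lay at 11.15, 11.58 and 12.01 in liver and 13.33, 14.32 and 14.83 in kidney, a difference of -2.68 ± 0.21 (adjusted p = 3.3e-09). Its values did not overlap between the organs. CS, the first enzyme, was level at -0.63 ± 0.12 and SDHD, of succinate dehydrogenase, at -0.62 ± 0.17, both toward kidney. The CS values of the organs did not overlap. SUCLA2 was higher in kidney, with a difference of -1.15 ± 0.16, which was -0.95 without the 4-week samples. DLAT carried saturated spots on all 16 arrays and has no specific probe, so its level state says nothing about its amount.

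Of 20 purine, urate and pyrimidine genes, 9 were higher in liver (45.0%) and 3 in kidney (15.0%). The genes measured on the path from xanthine through urate to allantoin were higher in liver. XDH, which makes urate, lay at 6.82, 7.25 and 8.10 in liver and 1.51, 1.91 and 2.00 in kidney and was at least 20.2-fold higher in liver. UOX, the urate oxidase that pigs retain, lay at 6.04, 8.56 and 9.61 in liver and 1.88, 2.50 and 2.78 in kidney and was at least 39.4-fold higher, and URAD, an enzyme after it with no specific probe, was at least 15.6-fold higher. SLC22A12, which reclaims urate from the filtrate, lay at 2.56, 2.76 and 3.14 in liver and 7.02, 8.88 and 10.34 in kidney and was at least 44.5-fold higher in kidney. PNP, a purine salvage enzyme, was at least 5.48-fold higher in kidney, a call that was lost with the offset of 50, at -0.97, and ADK, the adenosine kinase, was level at -0.02 ± 0.14.

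Vitamin and small-molecule genes were called in both directions, with 9 of 29 higher in liver, 12 in kidney and 6 level. GULO, the last enzyme of vitamin C synthesis, lay at 11.27, 12.26 and 13.02 in liver and 2.20, 2.35 and 3.38 in kidney and was at least 564-fold higher in liver (adjusted p = 2.34e-17). RBP4, the plasma carrier of retinol, lay at 6.04, 7.35 and 9.02 in kidney and was saturated on 5 of 8 liver arrays, so that the fitted difference of 8.39 is a lower limit. In kidney, AMN, which with cubilin reclaims vitamin carriers, lay at 3.06, 3.82 and 4.17 in liver and 7.68, 8.80 and 9.72 in kidney and was at least 30.5-fold higher. KL, the klotho co-receptor of phosphate and vitamin D balance, lay at 3.70, 4.41 and 4.98 in liver and 9.35, 9.80 and 10.23 in kidney, a difference of -5.38 ± 0.17, and CRYL1, which converts gulonate, was higher in kidney, with a difference of -4.55 ± 0.27. ALDH9A1, of carnitine synthesis, was level at 0.44 ± 0.17, CSAD, of taurine synthesis, at 0.34 ± 0.19 and FOLR2, a folate receptor, at 0.09 ± 0.24.

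The hormone and peptidase list held a pair of enzymes called in opposite organs. HSD11B2, which protects the distal tubule by inactivating cortisol, lay at 4.90, 6.00 and 6.59 in liver and 13.42, 13.91 and 14.10 in kidney, a difference of -7.97 ± 0.21 (adjusted p = 2.34e-16). HSD11B1, which regenerates cortisol in the liver, lay at 13.48, 13.67 and 13.95 in liver and 7.38, 7.55 and 8.57 in kidney, a difference of 5.92 ± 0.16 (adjusted p = 4.49e-16). All samples of one organ lay above all of the other for both genes, in opposite order. Of 27 genes in this list 8 were higher in liver (29.6%) and 11 in kidney (40.7%). DPEP1 and MEP1B, peptidases of the brush border, lay at 3.01, 3.38 and 5.36 in liver and 9.37, 10.74 and 11.16 in kidney for DPEP1 and at 1.39, 2.52 and 2.74 in liver and 6.98, 8.69 and 9.47 in kidney for MEP1B. DPEP1 was well above background on 3 of 8 liver arrays. IGFALS, the plasma partner of insulin-like growth factors, was higher in liver by 3.37 ± 0.18. DIO1, which activates thyroid hormone, was level at 8.90, 9.70 and 10.33 in liver and 8.86, 9.46 and 10.19 in kidney, against at most 3.10 elsewhere, and DPP4 was level at 10.25, 10.53 and 10.66 in liver and 10.29, 11.15 and 11.76 in kidney, against at most 7.56.

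Membrane carriers followed the organ they were listed for in most but not all cases. Of 43 renal tubule transporters 26 were higher in kidney, 0 were higher in liver and 7 were level. SLC34A1, the phosphate carrier, lay at 3.41, 3.64 and 4.32 in liver and 9.61, 10.18 and 10.94 in kidney, a difference of -6.54 ± 0.17 with no specific probe and 4 of 8 liver arrays well above background. SLC5A2, the bulk glucose carrier of the tubule, lay at 2.88, 3.06 and 3.43 in liver and 5.34, 6.50 and 7.13 in kidney and was at least 7.68-fold higher in kidney, while SLC5A1 was not well above background in either organ. SLC15A1, a peptide carrier, was level at -0.04 ± 0.20 and SLC6A20, for proline, at 0.14 ± 0.24. Of 29 hepatic transporters 24 were higher in liver (82.8%) and 2 in kidney (6.9%). SLC25A47, a mitochondrial carrier, lay at 10.95, 11.19 and 12.01 in liver and 2.90, 3.73 and 5.13 in kidney, a difference of 7.38 ± 0.27, with 2 of 8 kidney arrays well above background. SLC22A2, which takes up organic cations, was at least 12.2-fold higher in kidney. SLC16A10 and AQP11, listed for liver, were higher in kidney, with differences of -1.90 ± 0.15 and -1.38 ± 0.22.

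Of 53 transcription factors of the organs 15 were higher in liver (28.3%), 26 in kidney (49.1%), 7 were level (13.2%) and 8 were high in both (15.1%). FOXA3 lay at 8.97, 9.23 and 10.09 in liver and 2.42, 2.71 and 2.97 in kidney and was at least 77.1-fold higher in liver. GATA4 and NR0B2, the latter a repressor of bile acid synthesis, were higher in liver by 6.57 ± 0.13 and 6.44 ± 0.22, GATA4 with 2 of 8 kidney arrays well above background. HOXD8 lay at 3.11, 3.39 and 3.67 in liver and 10.94, 11.51 and 11.71 in kidney, at least 229-fold higher in kidney with no specific probe, and EMX2 was at least 62.0-fold higher. TFCP2L1, of the distal nephron, was higher in kidney, with a difference of -8.03 ± 0.43 and 2 of 8 liver arrays well above background, and its 2 highest liver values, 6.20 and 4.74, were those of the 1-week animals. HNF4A, a regulator of metabolic genes in both epithelia, lay at 5.77, 7.54 and 8.70 in liver and 5.69, 7.25 and 9.52 in kidney and was neither called nor level. Its paralogue HNF4G was higher in kidney, with a difference of -1.71 ± 0.20.

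Related proteins were also compared in listed pairs. Of 40 pairs listed, 33 had both members on the array. In 17 of them 1 member was called, in 9 the members were called in opposite organs, in 3 both were higher in liver and in 4 neither was called. FABP3, the heart type fatty acid binding protein with no specific probe, lay at 5.36, 5.93 and 7.39 in liver and 11.04, 11.24 and 11.84 in kidney, a difference of -5.27 ± 0.26, opposite to FABP1. CYP27A1, which oxidises the side chain of cholesterol and can hydroxylate vitamin D, lay at 10.66, 11.67 and 12.01 in liver and 5.88, 6.19 and 7.22 in kidney with no specific probe, and CYP27B1, which activates vitamin D, at 3.36, 3.58 and 4.32 in liver and 6.33, 6.55 and 7.57 in kidney. Their differences were 5.15 ± 0.23 and -3.09 ± 0.20. ACACA, the cytosolic acetyl-CoA carboxylase of fatty acid synthesis, was higher in liver by 1.98 ± 0.27, and ACACB, the mitochondrial form that restrains oxidation, higher in kidney, with a difference of -4.02 ± 0.49 and values of 3.10, 4.46 and 7.46 in liver and 7.98, 8.62 and 9.98 in kidney, and 4 of 8 liver arrays well above background. The organic anion carrier SLCO4C1, with no specific probe, was higher in kidney, with a difference of -4.88 ± 0.32 and 1 of 8 liver arrays well above background, opposite to SLCO1B3.

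The remaining opposite pairs were nearer to the threshold on one side. ARG2, the mitochondrial arginase, was higher in kidney, with a difference of -1.35 ± 0.36 (adjusted p = 0.00463), and overlapped with liver. It was -0.96 without the 4-week samples, which ended the call. Of the glycerol channels, AQP9 was at least 6.48-fold higher in liver and AQP7 differed by -1.01 ± 0.15. The AQP7 call was lost under 5 alternatives, with differences from -0.35 to -0.98. BHMT and BHMT2, which return a methyl group to homocysteine, differed by 2.29 ± 0.26 and -1.38 ± 0.19, both were high in both organs, and BHMT has no specific probe. The BHMT2 difference was -0.95 under median scaling and -0.91 under scaling on the 75th percentile. AGXT, which detoxifies glyoxylate, and AGXT2 differed by -1.03 ± 0.22 and 1.13 ± 0.21, AGXT2 with no specific probe. The AGXT difference was -0.37 under scaling on the 75th percentile, -0.44 under median scaling and -0.77 without the 4-week samples, and the AGXT2 difference was 0.89 without the 1-week samples, so that neither call held throughout.

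**Figure D3:**
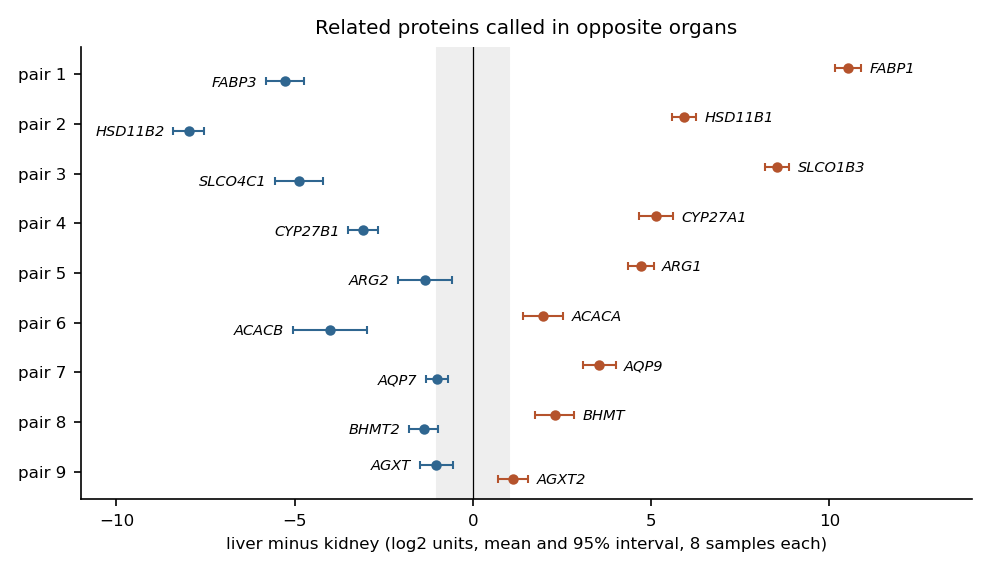
Difference between liver and kidney (log2 units) of the 9 pairs of related proteins called in opposite organs. Points are the limma estimate from 8 samples per organ, bars its 95% interval, and the grey band marks less than 2-fold. Liver members lie to the right of 0, from 1.13 for AGXT2 to 10.53 for FABP1, and kidney members to the left, down to -7.97 for HSD11B2.

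Of the 106 enzyme and pathway genes that were high in both organs, 61 were called in neither direction, and 36 of the 106 were level. Among all 507 genes high in both organs, 305 were called in neither direction. HAO1, which oxidises glycolate in peroxisomes, belonged to this group with 11.61, 11.93 and 12.15 in liver and 10.21, 10.87 and 11.67 in kidney, against at most 3.77 elsewhere, a difference of 0.97 ± 0.19. SLC27A2, an acyl-CoA synthetase of very long chains and bile acid precursors, lay at 9.80, 10.78 and 11.36 in liver and 8.87, 10.41 and 11.42 in kidney, against at most 3.36. The values of the organs overlapped in both of these genes, and the 40 samples of the 5 other organs lay below them.

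**Figure D4:**
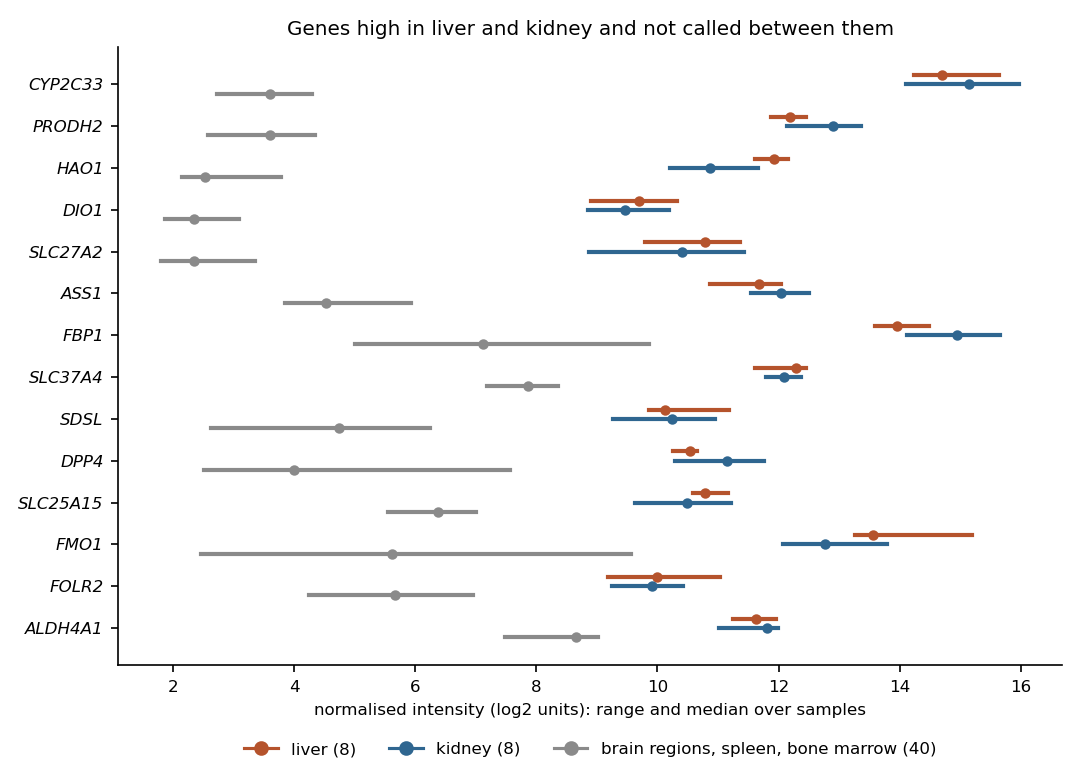
Range and median of the normalised intensity (log2 units) in the 8 liver samples, the 8 kidney samples and the 40 samples of the 5 other organs, for named genes that were high in both organs and not called between them. Liver and kidney ranges overlap for every gene drawn, and the range of the other organs ends below both, at 4.30 for CYP2C33.

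The 5 genes described next, chosen after their values were seen, had a wide range within liver. The median SD of a gene over the 8 samples was 0.292 in liver and 0.281 in kidney, against 0.115 over 8 technical repeats of the 2-year kidney. PCK1 in liver was 14.43, 12.59, 11.09 and 8.54 in the males, from the youngest to the oldest, and 14.69, 13.91, 14.57 and 14.33 in the females, so that the male values were lower at each older age. GPT2 in liver was 12.02, 10.66, 8.57 and 6.92 in the males and 12.16, 11.42, 10.42 and 10.28 in the females. SDS was 10.80, 8.98, 13.42 and 15.49 in the males and 12.11, 11.15, 9.00 and 7.38 in the females, highest and lowest of all at 4 months. HAMP, which encodes the iron hormone hepcidin, was 11.67, 5.54, 11.89 and 12.34 in the males and 8.95, 5.54, 12.00 and 12.85 in the females, lowest at 4 weeks in both. ADH4 was 8.05, 12.49, 12.58 and 13.02 in the males and 6.31, 11.64, 12.93 and 12.75 in the females, lowest at 1 week in both. With 1 animal at each age and sex, age, sex and individual cannot be told apart for single values, and the change of the organ difference with age passed the test for none of these 5 genes, with an adjusted p between 0.151 and 0.891.

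The change of the organ difference with age was tested directly, as the difference at 2 and 4 months minus that at 1 and 4 weeks, with 4 samples of each organ in each age class. It rose in 56 genes (0.236%) and fell in 29 (0.122%) at an adjusted p under 0.05. Of the 460 enzyme and pathway genes 10 rose and 0 fell, and 8 of the 10 belonged to fatty acid and sterol synthesis. The median difference over the 33 genes of that list was 0.99 and 1.28 at 1 and 4 weeks and 2.70 at both 2 and 4 months. With the samples of the same age and sex as a replicate block, 74 genes rose and 63 fell. The counts depended on single animals. Leaving out the liver and kidney of 1 age and sex gave 17 and 7 without the 1-week female, 21 and 9 without the 1-week male, 32 and 15 without the 2-month male, 31 and 19 without the 4-month male, and 255 and 280 without the 4-month female.

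Among genes with a symbol, the largest rises were in genes of cholesterol synthesis. IDI1, which isomerises isopentenyl diphosphate, had differences of 1.00, 0.93, 4.68 and 4.99 at the 4 ages in order, a change of 3.87 ± 0.39 (adjusted p = 0.000553). HMGCS1, an enzyme of the mevalonate pathway, changed by 3.62 ± 0.56, SQLE, which oxidises squalene, by 3.26 ± 0.45, and ACAT2, which makes acetoacetyl-CoA, by 3.23 ± 0.43. IDI1 in liver was 7.04, 7.02, 10.28 and 11.36 in the males and 6.92, 6.80, 9.69 and 10.05 in the females, low at both young ages and high at both older ages in each sex, while kidney stayed between 4.91 and 6.14. These 4 changes held without any 1 of the 8 pairs of animals, the IDI1 change between 3.66 and 3.99. Over all ages the HMGCS1 call of 1.81 ± 0.62 was lost without the 2-month samples, at 1.34 and an adjusted p of 0.18, and without the 4-month samples, at 1.06 and an adjusted p of 0.108. MVK changed by 1.65 ± 0.26, past the threshold in 6 of the 8 fits without 1 pair of animals. For RBP4 and ITIH1, whose liver values were at or near saturation, the changes of 1.94 ± 0.31 and 1.94 ± 0.35 came with lower kidney values at 2 and 4 months, and were past the threshold in 7 and 4 of these 8 fits.

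The 5 largest falls were in genes outside the enzyme lists. MEG3, an imprinted noncoding RNA, had differences of -0.64, -0.33, -2.98 and -4.73, a change of -3.37 ± 0.67 (adjusted p = 0.0381). In liver it was 8.99, 8.76, 6.54 and 4.28 in the males and 9.47, 8.48, 6.51 and 5.00 in the females, lower at each older age. DEFB1, a defensin of epithelia, had differences of -4.26, -3.80, -6.79 and -7.23, a change of -2.98 ± 0.49. FKBP1B, a binding protein of calcium release channels, changed by -2.79 ± 0.47 and LIPK, a lipase, by -2.37 ± 0.34, with liver values that were highest in the youngest samples. VWF, an endothelial and platelet protein measured by the feature listed under its transcript accession, changed by -2.09 ± 0.40. Kidney values of this feature were 6.64 to 7.61 at 1 and 4 weeks and 7.96 to 9.00 at 2 and 4 months. The separate feature listed under the symbol VWF did not pass the age test. SPP2, a plasma phosphoprotein, changed by -1.64 ± 0.21. Leaving out 1 pair of animals kept MEG3 past the threshold in 2 of 8 fits, VWF in 3, FKBP1B in 6, DEFB1 in 7 and LIPK and SPP2 in all 8. The MEG3 call over all ages was lost without the 2-month samples and without the 4-month samples.

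**Figure D5:**
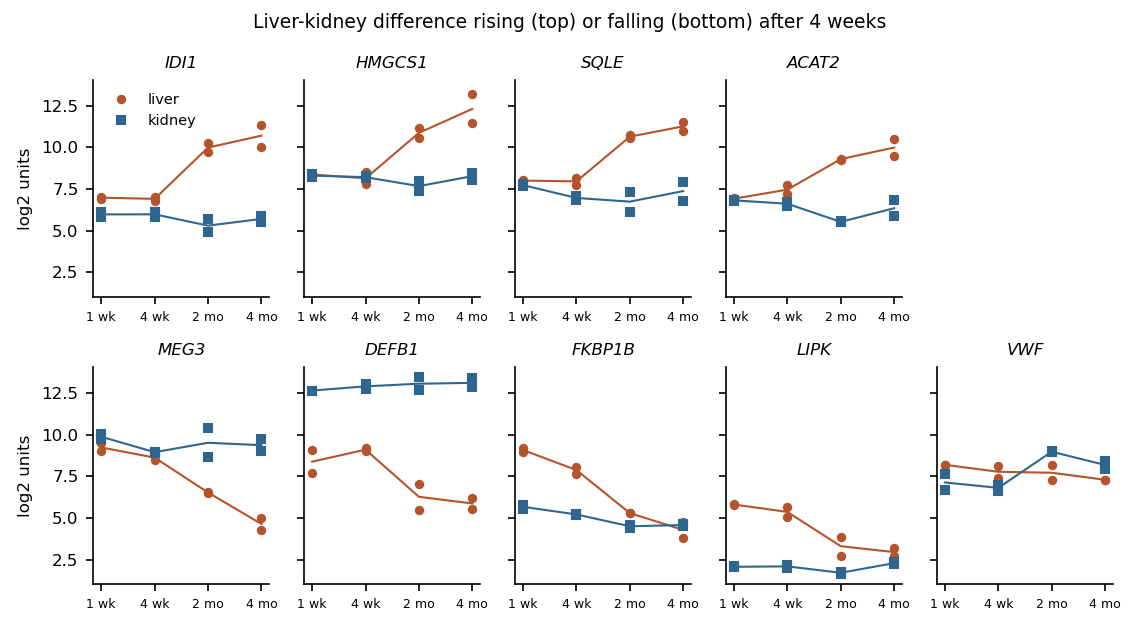
Normalised intensity (log2 units) against age of 4 genes with a large rise (top) and the 5 with the largest fall (bottom) of the organ difference after 4 weeks, with 1 point per sample and lines through the mean of the male and the female. Kidney is drawn as squares. Liver (circles) of the top genes is higher at 2 and 4 months than at 1 and 4 weeks, by a change in the organ difference of 3.23 to 3.87.

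The 2-year-old male, which was raised under other conditions and measured on slides of its own, was not part of any test. In its liver and kidney, the latter the mean of 8 technical arrays, the difference had the sign of the call for 1832 of the 1871 genes higher in liver and 2175 of the 2198 higher in kidney. IDI1 differed by 5.10 in this animal. PCK1 differed by -0.63 and ARG2 by 0.89, opposite to its call in the younger animals. HSD11B1 and HSD11B2 differed by 5.56 and -9.35.

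Markers of other cell types were also compared between the organs. CD14, a receptor of macrophages that hepatocytes also make, lay at 11.34, 11.87 and 12.21 in liver and 5.23, 5.78 and 6.18 in kidney, a difference of 6.15 ± 0.18, and 3 of 6 leukocyte markers were higher in liver, with mean levels of 5.86 to 7.21 against 3.88 to 4.78 in kidney. CD68, 1 of the 3, was well above background on 1 of 8 kidney arrays. The call of CD68 was lost without the 1-week samples, at 0.87, and without the 4-week samples, at 0.92. With the offset of 50 the calls of CD68 and of PTPRC, also among the 3, were lost, at 0.38 and 0.53. HBB, of red cells, lay at 10.64, 11.72 and 14.68 in kidney and from 13.76 upward in liver, a difference of 2.85 ± 0.56 with 2 saturated liver arrays, and 1 of 5 red cell markers was called, with SLC4A1 not above background in either organ. Their means were 5.99 to 7.63 in liver and 5.43 to 6.14 in kidney. LYVE1 was higher in liver by 3.56 ± 0.29, with 1 of 8 kidney arrays well above background, and STAB2 at least 3.57-fold. Both are markers of liver sinusoidal endothelium and have no specific probe. They were the only 2 called of 5 endothelial and stromal markers. The median difference of the 5 was -0.54, toward kidney, and the lowest was -0.99. Their means of 5.38 to 6.17 in liver and 4.78 to 5.54 in kidney include LYVE1 and STAB2. Among 3 bile duct markers, EPCAM, with no specific probe, and KRT19 were higher in kidney, with differences of -4.16 ± 0.24 and -2.73 ± 0.28, and SOX9 was higher in liver by 2.01 ± 0.35, with 4 of 8 kidney arrays well above background. CPA1, a pancreatic enzyme, was at least 2.98-fold higher in liver, well above background on 6 liver arrays. With the offset of 50 the calls of STAB2, SOX9 and CPA1 were lost, at 0.58, 0.93 and 0.44. The 5 pancreas markers had means of 3.11 to 3.63 in liver and 2.83 to 3.27 in kidney, with PNLIP and GCG dim in both organs, and none of 4 adrenal, 3 adipose and 4 proliferation markers was called. The part that blood, immune and endothelial cells had in the differences was not tested.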

How the data were processed

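Total RNA of 8 liver and 8 kidney samples was measured on one-colour arrays, within a series of 80 arrays. The authors deposited 1 scanner file per array with the raw median intensity of each spot, made with Agilent Feature Extraction 11.5.1.1 according to the submitters' processing notes and not normalised between arrays, and a table of log2 values, whose centring was not given in the sources used here (all column medians 4.57) and which served as an alternative. Spots flagged by the scanner software, 10 to 171 per array, were left out. Intensities were corrected with normexp (offset 0) and quantile normalised over all 80 arrays in limma 3.58.1 under R 4.3.3, and log2 values were averaged over spots, then over the probes of a gene. Background correction and quantile normalisation are steps that the study's methods name, while the summary by mean log2 value was chosen here. Positive control spots entered the background fit only. Figures and counts were made in Python 3.11.15 with pandas 2.3.3 and matplotlib 3.10.9.

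Liver and kidney were compared with lmFit and eBayes over 23722 genes. Samples of the same age and sex deviated together (r from 0.19 to 0.36 in 8 of 8 pairs of a liver and a kidney, a pairing that comes from age and sex in the labels), and a fit with the pair as a block changed by over 1.5 times only the count of falling differences. Within each of the 7 slides that held a liver and a kidney array, 90.8% of the genes called for liver and 92.3% of those called for kidney kept their sign. On simulated data with 200 genes changed 4-fold, the test of liver against kidney recovered 98.5% with 1 false call, and the age test recovered 83.0% with 7 false calls. The simulated samples varied independently, without the shared deviation of samples of the same age and sex. These rates therefore need not hold for the real arrays.

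Members and lists were chosen with earlier results of these data known. Of the list entries, 524 were matched by symbol, 103 by transcript accession through RefSeq names, and 87 were not matched. Named were the genes of each list with the largest difference (up to 3 per direction), the level genes with the highest mean (up to 3), all members of the pairs, the 10 genes with the largest difference in each direction and the 5 with the largest change with age in each direction, some of which are not reported here. The summaries of MVK, RBP4, ITIH1 and SPP2 with age were added after their values were seen. Of 3992 called genes with more than 1 probe, every probe had the sign of the gene in 3925, and 833 called genes had no probe marked as specific. A gene can appear under a symbol and under an accession as separate features, and of 561 such pairs 74 were called in 1 feature only. Alternatives covered the intensity column, offset, scaling, probe summary, flagged spots, dim genes, blocks, variance moderation, thresholds, samples left out, the deposited table and specific probes. No sequences are shown.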

Additional observations from a re-analysis of the deposited data

Results flagged for a closer look

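Among 352 groups of 8 samples of a named gene in an organ, 17 held a sample that stood apart from the other 7 by Dixon's test, or 4.83%. Chance alone gives about 1 in 20 groups. The gap to the nearest sample, as a share of the range of the group, was largest for MC2R in liver (0.649), ACLY in liver (0.626), SLC38A4 in liver (0.618), ARG2 in liver (0.613), ARG1 in liver (0.609) and GSTK1 in liver (0.6005). The 4-week male was the low sample for ARG1 and ARG2. The 4-month male was the low sample for ABCB4 in liver (0.566). The remaining liver groups were FABP4 (0.578), FGG (0.5525) and ABCG2 (0.537). In kidney they were GOT1 (0.591), PCK1 (0.591), MVK (0.571), XBP1 (0.559), ACSM2A (0.548), ELOVL1 (0.545) and HMGCS1 (0.5297). No array held more than 4 of the 17.

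The liver-kidney difference depended on age, by the test of the change itself, for 13 named genes. It rose for IDI1 (3.87), HMGCS1 (3.62), SQLE (3.26), ACAT2 (3.23), ITIH1 (1.94), RBP4 (1.94) and MVK (1.65). It fell for MEG3 (-3.37), DEFB1 (-2.98), FKBP1B (-2.79), LIPK (-2.37), VWF (-2.09, not in its symbol feature) and SPP2 (-1.64).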

How the results depend on the processing

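Of 154 named genes that were called, 124 kept the call under every alternative run for them, 30 lost it under at least 1, and 0 changed sign. These were 16 alternatives, or 15 for genes with no specific probe. They did not include the tests at other fold thresholds, which were counted over all genes only. An offset of 50 after background correction, which compresses dim genes, left 997 genes higher in liver and 1067 in kidney. A test against 2-fold itself left 994 and 1149, a 4-fold threshold 747 and 792, and no fold threshold gave 5359 and 5749. Specific probes alone, with fewer genes tested, gave 1445 and 1786. A width of 1.5-fold left 5353 level genes. The gene counts that rose and fell with age were 87 and 84 with the offset and 135 and 145 for 1 week against 4 months alone. The count that fell was 44 with the processed signal scaled on the 75th percentile, 16 under median scaling, and 44 in the deposited table. That use of the table, specific probes alone and leaving out 1 age and sex at a time were chosen after seeing the data. With the replicate block, in which a liver and a kidney of the same age and sex are paired, 63 genes fell, 22 of them among the 29 reported, while 1894 were higher in liver and 2214 in kidney, and the block changed no other call of a count by over 1.5 times. Leaving out 1 age gave 1827 to 1890 genes higher in liver, 2165 to 2221 in kidney, 9624 to 9927 level and 542 to 661 high in both. Leaving out 1 age and sex gave 17 to 255 genes that rose and 7 to 280 that fell, and the cause was not tested. Median scaling moved the median of all genes from 0.01 to 0.21. The number of animals limits precision, and 4702 genes were not well above background on any of the 16 arrays, where differences could not be measured.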
